A study of Mus musculus with 4 samples.

Results

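The 6 genes described here are the neurotrophin ligands Bdnf and Ntf3, the neurotrophin receptors Ngfr, Ntrk2 and Ntrk3, and the co-receptor Sort1. They were taken by row name from gene-by-cell count tables of mouse sciatic nerve, which together list 22716 genes, and all 6 had counts in each of the 4 libraries. The nerves came from wild-type CD1 mice, were dissociated with collagenase and trypsin, and were profiled by Drop-seq, a droplet method that counts the 3′ ends of transcripts by unique molecular identifiers (UMIs). One library held the distal segment of adult nerve 3 d after a unilateral resection (3 DPI), and another held uninjured adult nerve from both sides. Both adult libraries, and 1 of the 2 libraries of neonatal nerve (P2 to P3), were cleaned of myelin with removal beads. The other neonatal library (P3 to P4) was sorted by fluorescence-activated cell sorting (FACS) for Hoechst-high, propidium iodide-negative cells. No transgene or mutation was involved. The resected mice had isoflurane anesthesia, ketoprofen or meloxicam with buprenorphine before surgery, and ketoprofen or meloxicam again after it. No such treatment is described for the uninjured or neonatal nerves, so injury and these drugs cannot be told apart. The uninjured data had already been used in an earlier study of mesenchymal cells, while the 3 DPI data were newly generated. Any difference between those preparations cannot be told apart from injury either. How many animals made up a library was not given in the sources used here, and 9 DPI nerve was not analysed here.

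Neurotrophins are secreted as precursors that proteases cut to mature ligands. Mature brain-derived neurotrophic factor (Bdnf) binds TrkB, the product of Ntrk2, and neurotrophin-3 (Ntf3) binds mainly TrkC, the product of Ntrk3. Both TrkB and TrkC exist as full-length tyrosine kinases and as truncated forms without the kinase domain, and glial cells are known for the truncated forms. Ngfr encodes the p75 neurotrophin receptor (p75NTR), which binds all neurotrophins and serves as a marker of immature, non-myelinating and denervated Schwann cells. Sortilin (Sort1) pairs with p75NTR to bind the uncut precursors and also sorts proteins inside the cell. In the peripheral nerve, these ligands act on sensory, motor and sympathetic axons and on Schwann cells themselves.

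In GRCm38 with GENCODE vM21 (mm10 is the build the labels name), Bdnf lies on the plus strand of chromosome 2 from 109674700 to 109727007, and Ntf3 on the minus strand of chromosome 6 from 126101412 to 126166910. Ngfr lies on the minus strand of chromosome 11 from 95568818 to 95587735. Ntrk2 spans 58806569 to 59133970 on the plus strand of chromosome 13, and Ntrk3 spans 78175959 to 78738012 on the minus strand of chromosome 7. Sort1 lies on the plus strand of chromosome 3 from 108284082 to 108361511. The annotation gives Ntrk2 7 coding transcripts with 5 distinct coding ends and Ntrk3 6 coding transcripts with 4 distinct coding ends, whereas the coding transcripts of each of the other 4 genes share 1 coding end. The count tables hold 1 row per gene, so kinase and truncated receptor transcripts cannot be told apart in any value below. Annotated genes on the opposite strand overlap Bdnf (1 gene), Ntrk2 (3 genes), Ntrk3 (2 genes) and Sort1 (1 gene). No source used here says whether reads were counted by strand, so reads of such a pair may not be separated.

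The sequences upstream of Ngfr and Ntrk2 are shown because these were the receptors with the most UMIs and their levels differed in opposite directions between injured and uninjured Schwann-like cells. Each run gives 213 bases, from 250 to 38 bases before the gene's RefSeq start, 5′ to 3′ on the gene's strand, from RefSeq (GRCm38.p6), with capitals marking GGGCGG, the core of a GC box. RefSeq promoter windows matched 4 of the 6 genes, and those of Ntrk3 and Sort1 were not among them.
Ngfr, chr11:95587736-95587948, minus strand: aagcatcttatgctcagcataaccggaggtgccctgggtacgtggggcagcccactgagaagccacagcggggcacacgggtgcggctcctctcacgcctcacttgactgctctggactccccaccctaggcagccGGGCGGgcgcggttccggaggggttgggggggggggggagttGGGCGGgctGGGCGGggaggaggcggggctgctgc
Ntrk2, chr13:58806319-58806531, plus strand: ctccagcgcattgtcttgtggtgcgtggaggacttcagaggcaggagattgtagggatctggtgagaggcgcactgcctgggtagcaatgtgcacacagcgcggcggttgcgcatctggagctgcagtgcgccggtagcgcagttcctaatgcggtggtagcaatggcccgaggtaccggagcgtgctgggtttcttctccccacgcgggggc
The Ngfr window held 3 copies of GGGCGG, whereas the Ntrk2 window held none. On either strand, 27.4% of the 32851 promoter windows of the same length in the table held this motif. The TATA box TATAAA was in neither window and in 9.67% of all windows. The AP-1 motif TGANTCA was in neither and in 5.92% of all windows. The E-box CACGTG (4.79% of windows) was likewise not matched in either. Nor was CCAAT (30.2% of windows). The GC content was 70.9% for Ngfr and 62.9% for Ntrk2, against a median of 51.6% over all windows. These matches describe letters only.

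After filtering, 2163 cells of 3 DPI nerve, 1838 of uninjured nerve, 2191 of sorted neonatal nerve and 5420 of bead-prepared neonatal nerve were kept, with median depths of 994 to 1792 UMIs per cell. Cells were clustered within each condition and the clusters were named from marker genes, with the suffix "-like" because the names were rebuilt here from markers. The members were left out of the clustering and Ngfr was left out of the marker lists. The Schwann-like classes held 359 uninjured, 141 3 DPI, 1221 sorted neonatal and 3658 bead-prepared neonatal cells, and all 6 Schwann markers were found in each of them. The endoneurial-like classes held 417, 276, 109 and 281 cells in the same order, the VSM/pericyte-like classes (vascular smooth muscle and pericytes) 182, 82, 130 and 369 cells, and all markers of their lists were found in each. Endoneurial and epineurial cells are the mesenchymal fibroblasts inside and around the nerve fascicles. Among the uninjured Schwann-like cells, 3 cells held 370 of the 374 UMIs of 4 skeletal muscle markers, and the ratios given below for this class were 7.67 (Ngfr), 0.508 (Ntrk2), 0.175 (Ntrk3) and 0.252 (Sort1) without them. Of the kept barcodes, 1 was shared by the 3 DPI and bead-prepared libraries, 1 by both neonatal libraries and 1 by the bead-prepared and uninjured libraries.

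Each condition had 1 library (the neonatal nerve had 1 per preparation), so there was no replicate and no test between conditions. Levels are given as counts per 1000000 UMIs of the class (CPM) with exact Poisson 95% intervals, shares of cells with exact Clopper-Pearson 95% intervals, and ratios with exact conditional binomial 95% intervals. All of these cover counting error only, not the variation between animals or preparations. Where a count was 0, the limit printed with "up to" is that of 3 counts, and folds printed with "at least" divide by that floor. Such a limit is below the exact 95% bound, and for a share it limits the cells with a UMI, not the cells that express the gene. A ratio was formed where both groups together held at least 20 UMIs, and a gene was counted as higher or lower when its ratio reached 2-fold. Levels of different genes are not compared with each other, because 3′ counts are not scaled for how well each transcript is captured. In these units the median gene was shifted between 3 DPI and uninjured by 0.14 on the log2 scale in Schwann-like cells and by 0.23 in endoneurial-like cells.

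The ligand genes were sparse and were found mainly in vascular and mesenchymal cells. Bdnf gave 10 UMIs in the whole uninjured library, 14 at 3 DPI, 19 in the sorted and 21 in the bead-prepared neonatal library. In uninjured nerve, 5 of the 10 were in VSM/pericyte-like cells (20.1 CPM, 6.52 to 46.9) and 5 in endothelial-like cells (3.76 CPM, 1.22 to 8.78). At 3 DPI, 2 were in VSM/pericyte-like cells (8.56 CPM, 1.04 to 30.9), 6 in bridge-like cells (5.52 CPM, 2.02 to 12), the mesenchymal cells of the tissue that forms after resection, 5 in endoneurial-like cells (3.32 CPM, 1.08 to 7.74) and 1 in a Schwann-like cell. VSM/pericyte-like cells had the highest CPM of Bdnf among classes of at least 50 cells in all 4 libraries, with 10 UMIs (35.3 CPM, 16.9 to 64.8) in sorted and 11 UMIs (22.7 CPM, 11.3 to 40.5) in bead-prepared neonatal nerve. The interval of the next class overlapped in each library, so at this depth the order of the classes for Bdnf could not be fixed.

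No Bdnf UMI was found in the Schwann-like cells of 3 libraries. These were 0 of 359 uninjured cells, which allows a share of up to 0.836%, 0 of 1221 sorted neonatal cells, which allows up to 0.246%, and 0 of 3658 bead-prepared neonatal cells, which allows up to 0.0820%. At 3 DPI, 1 of 141 Schwann-like cells had a Bdnf UMI (0.709%, 0.0180 to 3.89%). The endoneurial-like cells of the 3 DPI library had 5 UMIs and those of the uninjured library had none (0 of 417 cells, up to 0.719%), and with so few UMIs no ratio was formed.

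Ntf3 gave 88 UMIs in uninjured nerve, 66 at 3 DPI, and 12 and 33 in sorted and bead-prepared neonatal nerve. In the adult libraries it was found mainly in the same vascular classes and in epineurial-like cells. The endothelial-like cells of sorted and the epineurial-like cells of bead-prepared neonatal nerve held 0 Ntf3 UMIs. In uninjured nerve, VSM/pericyte-like cells stood highest, with 26 UMIs in 20 of 182 cells (104 CPM, 68.2 to 153). Endothelial-like cells followed with 38 UMIs in 26 of 419 cells (28.6 CPM, 20.2 to 39.2) and epineurial-like cells with 20 UMIs in 19 of 377 cells (22.9 CPM, 14 to 35.4). The intervals of the last 2 overlapped, and both lay below that of the VSM/pericyte-like cells. Endoneurial-like cells (3 UMIs, 2.82 CPM) and Schwann-like cells (1 UMI, 2.41 CPM) were lower again. The neurotrophin-3 transcript was therefore measured in blood vessel and epineurial cells of the uninjured nerve, and was near the limit of 1 to 3 UMIs in its Schwann-like and endoneurial-like cells.

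At 3 DPI, the VSM/pericyte-like cells held 1 Ntf3 UMI in 82 cells (4.28 CPM, 0.108 to 23.8), a ratio to uninjured of 0.041 (0.001 to 0.249). The endothelial-like cells held 25 UMIs (24.7 CPM, 16 to 36.5), a ratio of 0.864 (0.50 to 1.47), and the epineurial-like cells 24 UMIs (21.1 CPM, 13.5 to 31.5), a ratio of 0.922 (0.488 to 1.76). Thus the intervals of the VSM/pericyte-like cells of both libraries did not overlap, while those of the endothelial-like and epineurial-like cells did. In VSM/pericyte-like cells, 3 members could be compared, 0 were at least 2-fold higher and 2 at least 2-fold lower (Ntf3 and Sort1), where 13.5% of 4393 genes were higher and 10.8% lower. The class itself differed between the libraries. Myh11 and Acta2, contractile genes of smooth muscle, stood at 5292 and 12829 CPM in uninjured and at 1691 and 7678 CPM in 3 DPI cells, and Rgs5, which marks pericytes, at 4070 and 12913 CPM. Per 100 Acta2 UMIs of the class, Ntf3 gave 0.814 UMIs in uninjured and 0.0557 at 3 DPI. A different mix of smooth muscle cells and pericytes and a different Ntf3 level per cell cannot be told apart in these ratios.

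A finer clustering (resolution 0.8, chosen after seeing the data) parted the uninjured VSM/pericyte-like cells by Myh11 and Rgs5. All 26 Ntf3 UMIs were in the 97 cells of the Myh11-led cluster (168 CPM, 110 to 246), while the 85 cells of the Rgs5-led cluster held 0, which allows up to 31.9 CPM. Bdnf was divided the other way, with 0 UMIs in the Myh11-led cluster and 5 UMIs in 4 cells of the Rgs5-led cluster (53.2 CPM, 17.3 to 124). The exact Poisson interval of the 0 UMIs in the Myh11-led cluster reached 23.8 CPM, so these intervals overlapped. All 6 Ngfr UMIs of this class were likewise in the Rgs5-led cluster. In the bead-prepared neonatal library, the Myh11-led cluster (120 cells) held 8 of the 9 Ntf3 UMIs of the class (54.9 CPM, 23.7 to 108) and the Rgs5-led cluster (187 cells) held 1 (4.31 CPM, 0.109 to 24.0). The Bdnf levels of these same clusters were 27.5 CPM (7.48 to 70.3) and 17.2 CPM (4.70 to 44.1) and overlapped, so the division of Bdnf seen in uninjured nerve was not detectable there. The 3 DPI cells stayed in 1 cluster. In the plot of mural clusters, the UMIs of the 2 ligand genes lay in different clusters of the uninjured vessel wall, but the Bdnf intervals overlapped.

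**Figure D1:**
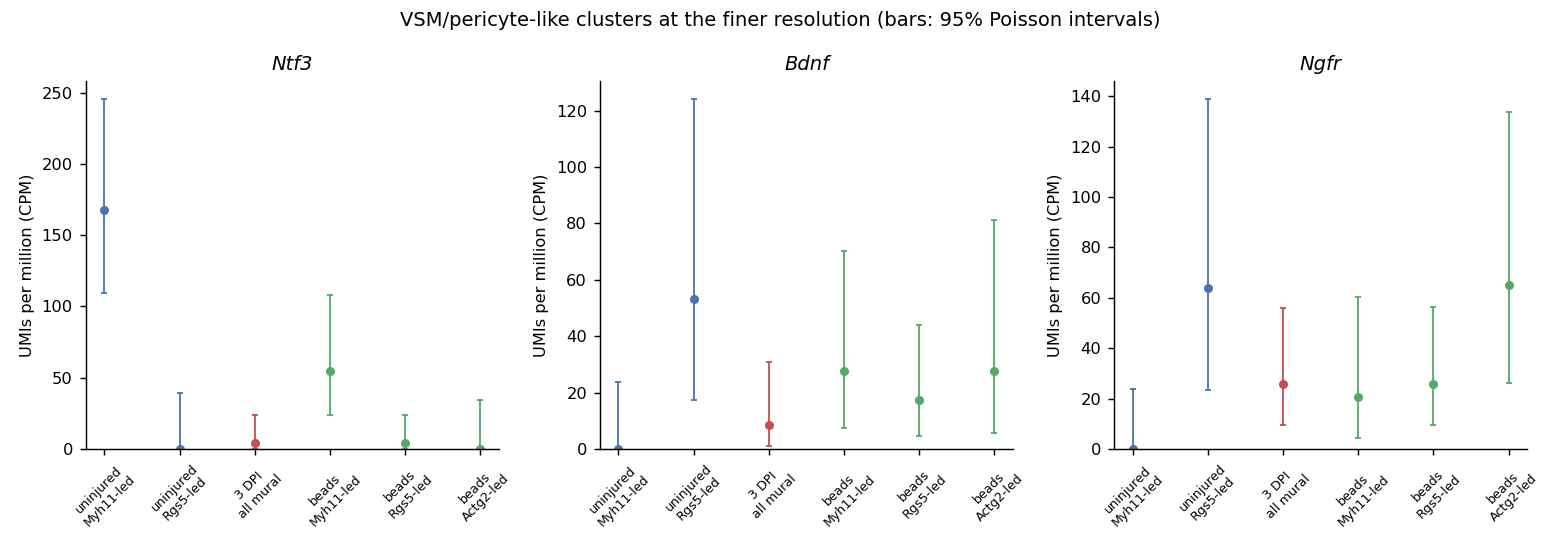
Ntf3, Bdnf and Ngfr in the VSM/pericyte-like clusters of a finer clustering. Points are CPM of the cluster and bars are exact Poisson 95% intervals (counting error only, 1 library each), and the sorted neonatal clusters are not drawn. In uninjured nerve Ntf3 lies at 168 CPM in the Myh11-led and at 0 in the Rgs5-led cluster, and Bdnf at 0 and 53.2 CPM with overlapping intervals.

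The same finer clusters showed an uneven Ntf3 level among endothelial cells of uninjured nerve. A cluster led by Selp and Darc, genes of venular endothelium, held 28 of the 38 UMIs (52.3 CPM, 34.8 to 75.7), and a cluster led by Gpihbp1 and Rbp7, genes of capillary endothelium, held 7 (37.5 CPM, 15.1 to 77.3). A cluster led by Slco1a4, a transporter of blood-nerve barrier endothelium, held 1 (2.18 CPM, 0.0552 to 12.2), which was below both of the others without overlap, and a cluster led by Gkn3 held 2. The uninjured endothelial-like class also held 797 Acta2 UMIs in 123 cells. Per 100 Acta2 UMIs it gave 4.77 Ntf3 UMIs, against 0.814 in the uninjured VSM/pericyte-like cells. The part of smooth muscle and pericyte transcripts in these endothelial levels was not tested. In bead-prepared neonatal nerve, the cluster led by Darc and Vwf held 7 Ntf3 UMIs in 80 cells (38.8 CPM, 15.6 to 79.9) and the remaining 403 endothelial-like cells held 6 (6.99 CPM, 2.56 to 15.2), again without overlap. In Schwann-like cells, Ntf3 stayed at 2 UMIs or fewer in every library, at 4.33 CPM at 3 DPI, 0.459 in sorted and 0.502 in bead-prepared neonatal nerve.

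Ngfr was the member that stood higher after injury in Schwann-like cells. In Schwann-like cells, it stood at 98.7 CPM in uninjured nerve (41 UMIs, 70.8 to 134), at 762 CPM at 3 DPI (352 UMIs, 684 to 845), at 175 CPM in sorted neonatal (382 UMIs, 158 to 194) and at 355 CPM in bead-prepared neonatal nerve (1412 UMIs, 336 to 374). The 3 DPI level was higher than each of the other 3, and no intervals overlapped. The ratio of 3 DPI to uninjured was 7.72 (5.57 to 10.9). A UMI of Ngfr was found in 81 of 141 Schwann-like cells at 3 DPI (57.4%, 48.8 to 65.7%) and in 31 of 359 in uninjured nerve (8.64%, 5.94 to 12%). When each cell was thinned to 500 UMIs, which leaves out 14 and 17 shallower cells, the shares were 34.6% (26.4 to 43.6%) and 4.68% (2.70 to 7.49%). Endothelial-like cells, which should lack the gene, had Ngfr in 0.826% of 242 cells at 3 DPI (median depth 1960 UMIs, against 1966 in Schwann-like cells) and in 0.716% of 419 uninjured cells (1875 against 983 UMIs). The shares in Schwann-like cells lay above these in both libraries.

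Of the Schwann-like genes with enough UMIs, 18.7% of 6985 were at least 2-fold higher at 3 DPI and 14.0% at least 2-fold lower. Among the 4 members that could be compared in this class, 1 was higher (Ngfr) and 2 were lower (Ntrk3 and Sort1). Sox10, the transcription factor that marks all Schwann cells, was at 266 CPM in the 3 DPI and at 462 CPM in the uninjured class. The uninjured class was divided into 278 non-myelinating and 81 myelinating Schwann-like cells, whereas the 3 DPI class was not divided. The Ngfr ratio of the 3 DPI class to the uninjured non-myelinating cells alone was 5.81 (4.2 to 8.24). The part of a change in the makeup of the Schwann-like class in the Ngfr ratio was not tested.

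Ngfr UMIs were spread unevenly over the 3 DPI Schwann-like cells. Cells with any Ngfr had a median of 2 UMIs, the highest cell had 35, and the 10 cells with most held 152 UMIs, or 43.2% of the class. Without these 10 cells the class stood at 583 CPM and its ratio to uninjured at 5.91. The 40 cells with a UMI of the division genes Top2a or Mki67 had 796 CPM (683 to 923) and the 101 cells without had 730 CPM (626 to 846), which overlapped. Ntrk2 in the same cells was 109 CPM (69.6 to 162) with and 245 CPM (186 to 316) without a division gene, and these intervals did not overlap. The cells with a division gene were deeper, with a median of 3645.5 UMIs against 1717, and the part of depth was not tested.

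Within the Schwann lineage, Ngfr was found in non-myelinating and immature cells and was at the limit of detection in myelinating cells, as the plot of Schwann-like groups shows. In uninjured nerve the non-myelinating cells had 131 CPM (94.1 to 178) and the myelinating cells 0 UMIs in 81 cells, which allows a share of up to 3.70% and a level of up to 29.2 CPM, so against the floor of 3 counts the level was at least 4.49-fold higher in non-myelinating cells (3.49-fold at the lower end of its counting interval). In sorted neonatal nerve, non-myelinating cells had 276 CPM (249 to 305) and myelinating cells 3.83 CPM (3 UMIs in 443 cells), a ratio of 72.1 (24.5 to 351). In bead-prepared neonatal nerve, non-myelinating cells had 431 CPM (409 to 455), and a cluster led by Pou3f1, a transcription factor of promyelinating Schwann cells, had 59.1 CPM (43.3 to 78.9). Its 32 myelinating cells had 1 UMI. The 3 DPI class exceeded the neonatal non-myelinating cells by a ratio of 2.76 (2.38 to 3.20) for the sorted and 1.77 (1.57 to 1.99) for the bead-prepared library. The neonatal non-myelinating cells in turn exceeded the uninjured ones by 2.10 (1.52 to 2.98) and 3.29 (2.41 to 4.61). The neonatal group with this name held, over both libraries, a cluster of 703 cells led by Ube2c, Prc1 and Top2a. It thus included dividing cells, and their part in these ratios was not tested. Over all Schwann-like cells, the ratio of the sorted to the bead-prepared library was 0.495 (0.441 to 0.554). The neonatal preparations differed in purification and age together, which cannot be told apart, and 443 of the 475 neonatal myelinating cells were in the sorted library.

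**Figure D2:**
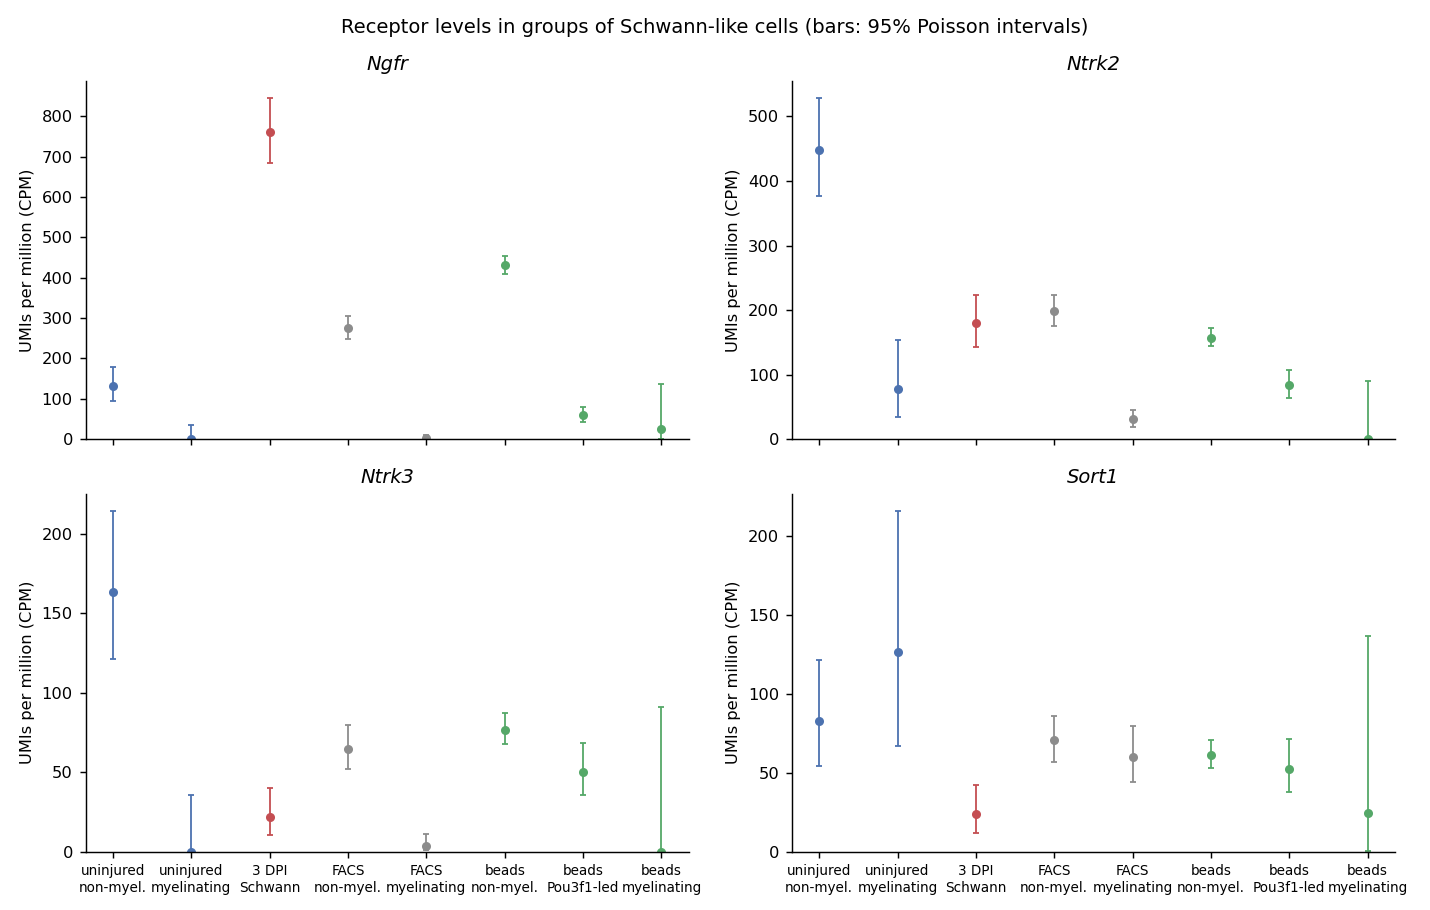
Receptor and co-receptor levels in the Schwann-like groups of each library. Points are CPM of the group and bars are exact Poisson 95% intervals, from 1 library each. Ngfr is highest at 3 DPI (762 CPM), Ntrk2 and Ntrk3 are highest in uninjured non-myelinating cells (448 and 163 CPM), and Sort1 is found in myelinating as well as non-myelinating cells.

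Ngfr in endoneurial-like cells lay in the opposite direction after injury. The level was 130 CPM in uninjured nerve (138 UMIs, 109 to 153), 57.0 CPM at 3 DPI (86 UMIs, 45.6 to 70.4), 261 CPM in sorted neonatal (108 UMIs, 214 to 315) and 250 CPM in bead-prepared neonatal nerve (134 UMIs, 210 to 296). Both neonatal levels overlapped each other and lay above the uninjured level, which lay above that of 3 DPI. The ratio of 3 DPI to uninjured was 0.439 (0.332 to 0.579). In this class 4 members could be compared, of which 0 were at least 2-fold higher and 2 at least 2-fold lower (Ngfr and Ntrk3), where 17.5% of 9588 genes were higher and 8.48% lower. The share of cells with Ngfr was 24.7% of 417 uninjured and 20.7% of 276 3 DPI cells, whose intervals overlapped. The 3 DPI cells were deeper, with a median of 4228 UMIs against 2175, and thinned to 500 UMIs the shares were 8.03% (5.59 to 11.1%) and 4.28% (2.16 to 7.53%), which overlapped as well. The ratio of the thinned counts was 0.582, short of a 2-fold difference.

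The Schwann-lineage gene Sox10 was counted beside Ngfr in the same cells. Beside 138 Ngfr UMIs, the uninjured endoneurial-like cells held 2 Sox10 UMIs, and the uninjured Schwann-like cells held 192 Sox10 UMIs beside 41 of Ngfr. At 3 DPI the endoneurial-like cells held 2 Sox10 UMIs beside 86 of Ngfr, and the Schwann-like cells 123 beside 352. In the neonatal endoneurial-like cells there were 1 (sorted) and 6 (bead-prepared) Sox10 UMIs beside 108 and 134 of Ngfr. Of all Ngfr UMIs in uninjured nerve, 69.7% were in endoneurial-like and 20.7% in Schwann-like cells. At 3 DPI these shares were 15.8% and 64.6%, as the plot of UMI sources shows. These shares also depend on how many cells of each class a library held.

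**Figure D3:**
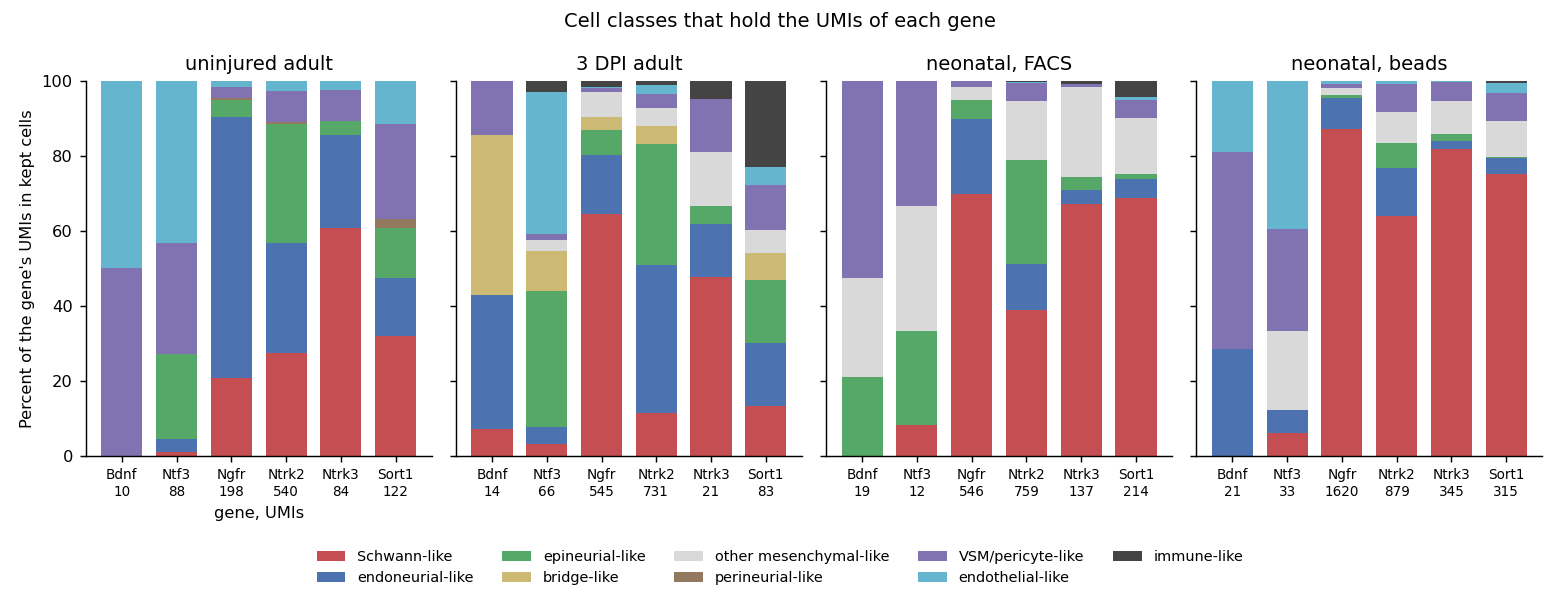
Where the UMIs of each member were found. Each bar is 1 library and adds to 100% of the gene's UMIs in kept cells, coloured by cell class. For Ngfr, endoneurial-like cells hold 69.7% in uninjured nerve and Schwann-like cells hold 64.6% at 3 DPI.

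Elsewhere Ngfr was low. Epineurial-like cells had 10.3 CPM in uninjured nerve (9 UMIs, 4.72 to 19.6) and 31.7 CPM at 3 DPI (36 UMIs, 22.2 to 43.9), a ratio of 3.07 (1.45 to 7.25), and 56.7 and 81.0 CPM in sorted and bead-prepared neonatal nerve. With classes set cell by cell from marker UMIs and not by cluster, this ratio was 1.21, and as a mean over cells it was 1.93, both short of 2-fold. Of the epineurial-like genes, 8.38% of 8985 were higher at 3 DPI and 3.19% lower. Among the 4 members compared there, 1 was higher (Ngfr) and 0 lower. VSM/pericyte-like cells had 24.1 CPM in uninjured and 25.7 CPM at 3 DPI (6 UMIs each), and endothelial-like cells 2.26 and 1.98 CPM. Immune-like cells at 3 DPI had 8 UMIs in 512 cells (13.5 CPM, 5.81 to 26.5).

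Ntrk2 was found in Schwann-like, mesenchymal and VSM/pericyte-like cells of every library. In uninjured nerve, Schwann-like cells had 356 CPM (148 UMIs, 301 to 418), above every other class. Epineurial-like cells had 197 CPM (169 to 229), VSM/pericyte-like cells 177 CPM (128 to 237) and endoneurial-like cells 149 CPM (126 to 174), 3 neighbours whose intervals overlapped. Perineurial-like cells had 24.7 CPM (3 UMIs) and endothelial-like cells 11.3 CPM (6.32 to 18.6). In both neonatal libraries the order was led by epineurial-like cells, at 427 CPM (371 to 489) in sorted and 336 CPM (255 to 434) in bead-prepared nerve. Endoneurial-like cells followed at 225 CPM (182 to 276) and 211 CPM (174 to 254), below the epineurial-like cells without overlap, and Schwann-like cells had 136 CPM (121 to 152) and 141 CPM (130 to 154). Endothelial-like cells stood at 5.40 and 6.74 CPM.

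At 3 DPI, Ntrk2 in Schwann-like cells was 180 CPM (83 UMIs, 143 to 223), a ratio to uninjured of 0.504 (0.381 to 0.664). This lay just short of the 2-fold mark, and thinned to 500 UMIs per cell the ratio was 0.808. Against the uninjured non-myelinating cells, which had 448 CPM (377 to 528), the ratio was 0.401 (0.302 to 0.530). The 3 DPI level overlapped that of neonatal non-myelinating cells, with ratios of 0.907 (0.701 to 1.16) to the sorted and 1.14 (0.893 to 1.44) to the bead-prepared library. Non-myelinating cells of uninjured nerve stood 5.75-fold (2.84 to 13.6) above myelinating cells (77.9 CPM, 33.6 to 153), and those of sorted neonatal nerve 6.46-fold (4.25 to 10.3) above theirs (30.6 CPM, 19.6 to 45.6).

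In the other classes, no Ntrk2 ratio of injured to uninjured nerve reached 2-fold. Endoneurial-like cells had 192 CPM at 3 DPI (290 UMIs), a ratio of 1.29 (1.06 to 1.58), which was 0.955 with cells assigned from their own markers and 0.872 after thinning, so its direction depended on the processing. Epineurial-like cells had 207 CPM at 3 DPI, a ratio of 1.05 (0.859 to 1.29), and endothelial-like cells 18.8 CPM, a ratio of 1.66 (0.801 to 3.52) that was 0.786 with classes set cell by cell. Of the endothelial-like genes, 7.36% of 9680 were at least 2-fold higher and 6.34% at least 2-fold lower, and of the 2 members compared there (Ntf3 and Ntrk2) 0 were higher and 0 lower. VSM/pericyte-like cells had 111 CPM, a ratio of 0.629 (0.372 to 1.05) that was 1.27 as a mean over cells. Bridge-like cells, a name given at 3 DPI alone, had 32.2 CPM (22.4 to 44.8), and the dividing mesenchymal cells led by Top2a had 28.4 CPM (19.9 to 39.3), both below the endoneurial-like and epineurial-like cells of the same library. Immune-like cells had 7 UMIs (11.8 CPM, 4.74 to 24.3), which is the size of the endothelial-like values.

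Ntrk3 was concentrated in Schwann-like cells of uninjured nerve and was low at 3 DPI. The Schwann-like level was 123 CPM in uninjured nerve (51 UMIs, 91.4 to 161), 21.6 CPM at 3 DPI (10 UMIs, 10.4 to 39.8), 42.3 CPM in sorted neonatal (92 UMIs, 34.1 to 51.8) and 70.8 CPM in bead-prepared neonatal nerve (282 UMIs, 62.8 to 79.6). The uninjured level lay above all 3 others, and the 3 DPI level overlapped that of the sorted neonatal library. The ratio of 3 DPI to uninjured was 0.176 (0.0798 to 0.351), or 5.67-fold lower (2.85 to 12.5). Thinned to 500 UMIs per cell, this ratio was 0.431, and the shares of cells with a UMI were 3.15% (0.865 to 7.87%) at 3 DPI and 6.73% (4.31 to 9.92%) in uninjured nerve, which overlapped. All 51 uninjured UMIs were in the non-myelinating cells (163 CPM, 121 to 214). The myelinating cells had 0 UMIs in 81 cells (up to 29.2 CPM), so against the floor of 3 counts non-myelinating cells were at least 5.59-fold higher (4.38-fold at the lower end). In sorted neonatal nerve the myelinating cells had 3.83 CPM (3 UMIs) and the non-myelinating cells 64.7 CPM, a ratio of 16.9 (5.60 to 83.6).

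Outside the Schwann-like cells, Ntrk3 in uninjured nerve was 28.1 CPM (11.3 to 58.0) in VSM/pericyte-like and 19.8 CPM (12.2 to 30.2) in endoneurial-like cells, which overlapped, and was 3.44 CPM in epineurial-like cells. The endoneurial-like cells of the 3 DPI library had 3 UMIs (1.99 CPM, 0.410 to 5.81), a ratio of 0.101 (0.0192 to 0.337). The neonatal mesenchymal clusters led by Igfbp6 and Cldn1 had 45.5 CPM (31.3 to 63.9) in sorted and 46.1 CPM (31.3 to 65.5) in bead-prepared nerve, which overlapped the Schwann-like levels of the same libraries. Endothelial-like cells had 0 to 2 Ntrk3 UMIs in every library.

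In uninjured and sorted neonatal nerve, Sort1 differed from the receptor genes in that myelinating and non-myelinating Schwann-like cells had levels that overlapped. In bead-prepared neonatal nerve, Ntrk3 overlapped too, at 76.8 CPM (67.4 to 87.1) in non-myelinating cells. The 32 myelinating cells there held 0 Ntrk3 UMIs, with an exact interval up to 90.8 CPM. For Sort1 in uninjured nerve, the myelinating cells had 127 CPM (13 UMIs, 67.4 to 216) and the non-myelinating cells 83.1 CPM (26 UMIs, 54.3 to 122). In sorted neonatal nerve these levels were 60.0 CPM (44.1 to 79.7) and 70.6 CPM (57.2 to 86.3). The ratios of non-myelinating to myelinating cells were 0.657 (0.326 to 1.39) and 1.18 (0.823 to 1.71), and so differences of up to about these bounds could not be told from 1. At 3 DPI the Schwann-like level was 23.8 CPM (11 UMIs, 11.9 to 42.6) against 93.9 CPM (39 UMIs, 66.8 to 128) in uninjured nerve, a ratio of 0.254 (0.117 to 0.505). The 3 DPI level also lay below those of the neonatal Schwann-like cells, which were 67.5 CPM (57.0 to 79.4) and 59.5 CPM (52.2 to 67.6).

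VSM/pericyte-like cells had the highest Sort1 level of the uninjured nerve (125 CPM, 31 UMIs, 84.6 to 177), overlapping that of the Schwann-like cells, and 42.8 CPM at 3 DPI (10 UMIs, 20.5 to 78.7), a ratio of 0.344 (0.150 to 0.719). As for Ntf3, the mix of smooth muscle cells and pericytes differed between these classes. Immune-like cells of 3 DPI nerve had 32 CPM (19.2 to 49.9), of which 15 of 19 UMIs were in a macrophage-like cluster of 176 cells (53.9 CPM, 30.1 to 88.8). Endoneurial-like cells had 17.9 CPM in uninjured and 9.29 CPM at 3 DPI, a ratio of 0.519 (0.241 to 1.09), and epineurial-like cells 18.3 and 12.3 CPM, a ratio of 0.672 (0.304 to 1.47). Both of these intervals reached 1. With classes set cell by cell, these ratios were 0.439 and 0.376, and the mean over cells gave 0.319 for the endoneurial-like cells, all past a 2-fold difference.

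**Figure D4:**
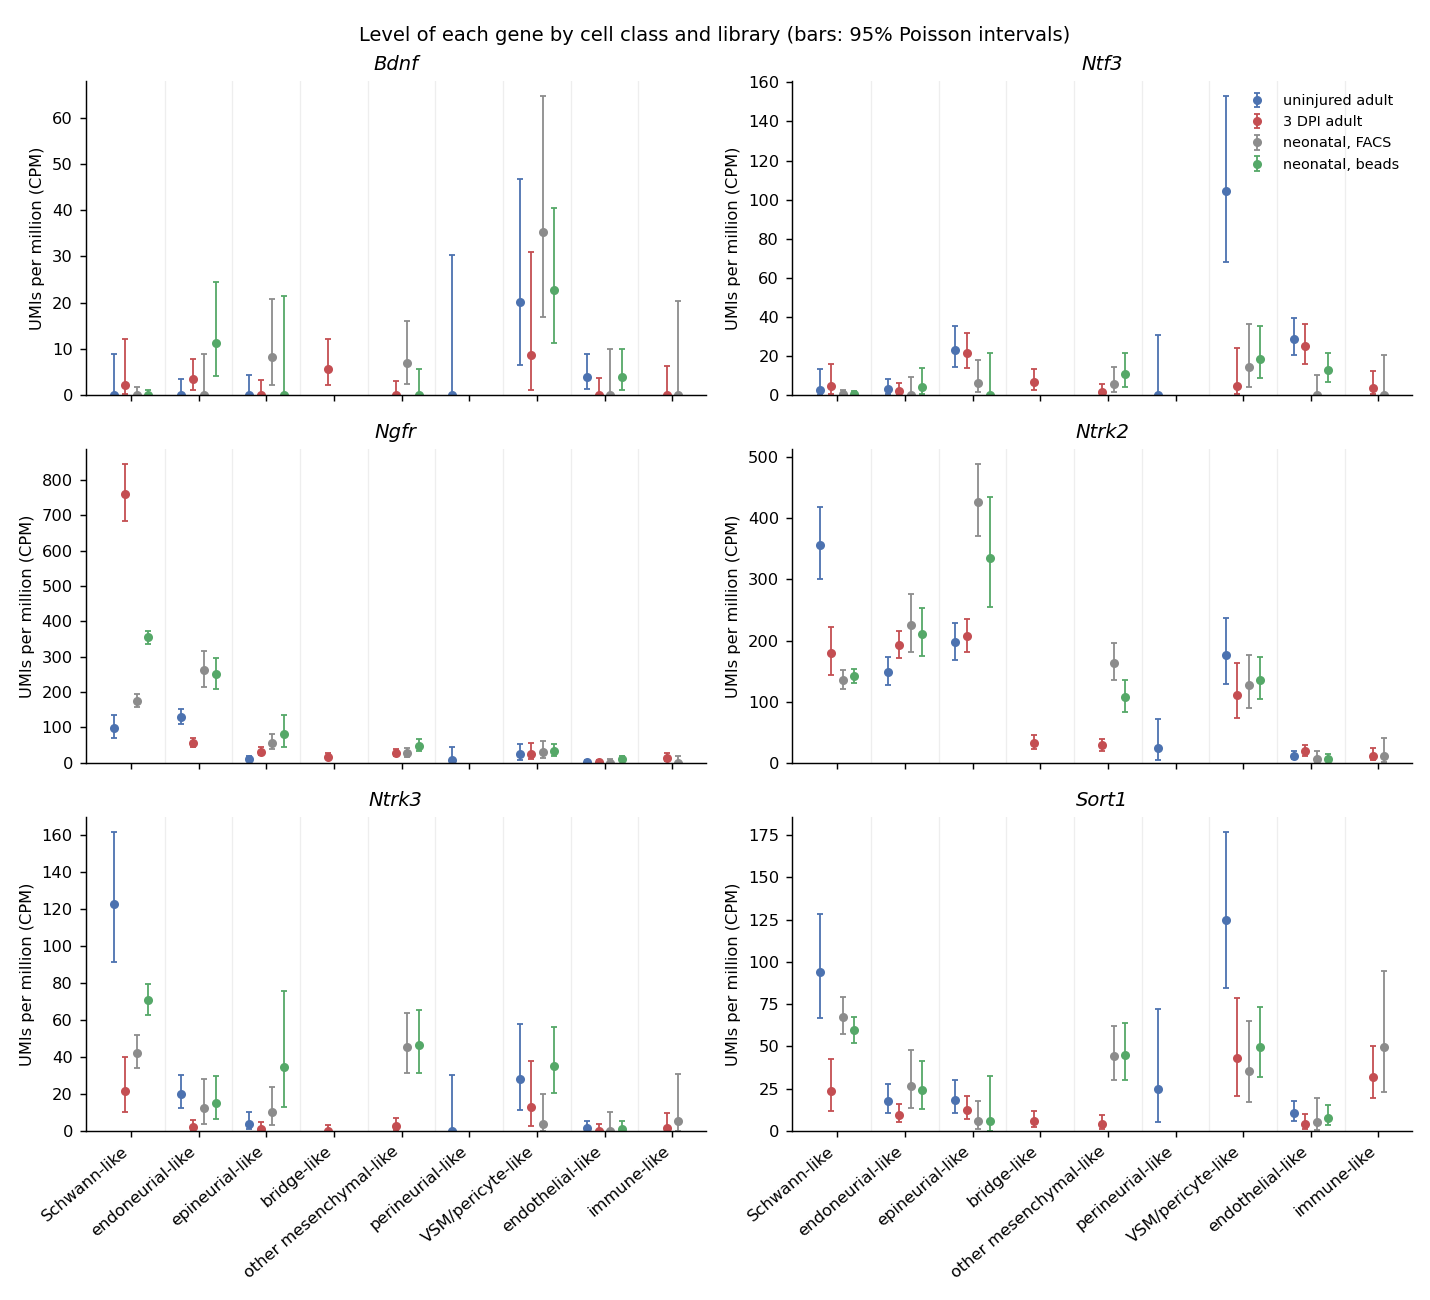
Level of each member in every class of at least 50 cells in the 4 libraries. Points are CPM of the class on a linear axis that differs between genes, and bars are exact Poisson 95% intervals, with 1 library each. Bdnf and Ntf3 are low, with their highest points in VSM/pericyte-like cells except for Ntf3 at 3 DPI. Of these, only Ntf3 in uninjured nerve has an interval clear of the next class. Ngfr peaks in 3 DPI Schwann-like cells (762 CPM), and Ntrk2 is found in Schwann-like, mural and mesenchymal classes.

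**Figure D5:**
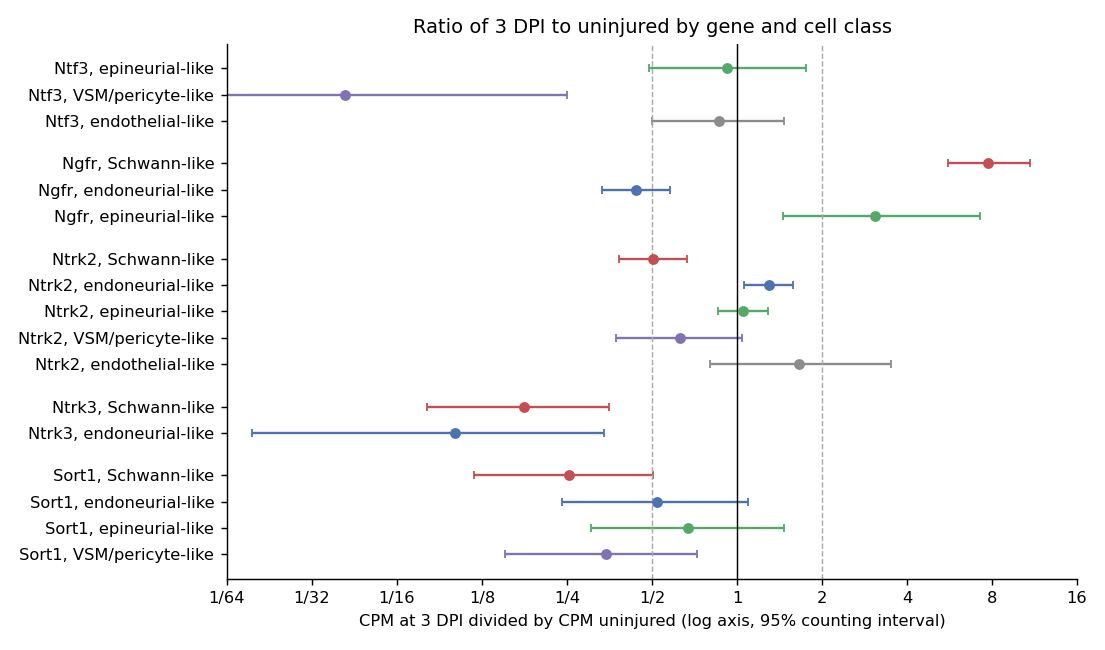
Ratio of 3 DPI to uninjured CPM for each member and class with at least 20 UMIs, on a log axis with exact conditional binomial 95% intervals. Dashed lines mark 2-fold differences and the interval of Ntf3 in VSM/pericyte-like cells runs past the left edge. Ngfr lies at 7.72 in Schwann-like and 0.439 in endoneurial-like cells, and Ntrk3 lies at 0.176 and 0.101.

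Receptor genes were also counted in the same cells. In 3 DPI Schwann-like cells, Ntrk2 was found in 40.7% of the 81 cells with Ngfr and in 13.3% of the 60 cells without, but the cells with Ngfr were deeper, with a median of 3014 UMIs against 1140. In uninjured non-myelinating cells, where the depths were 1153 and 947 UMIs, the shares were 35.5% and 33.2%. All 7 of the 3 DPI Schwann-like cells with Sort1 also had Ngfr. In uninjured non-myelinating cells, by contrast, Sort1 was found in 3.23% of the cells with Ngfr and in 8.91% of those without. For neonatal non-myelinating cells, the Sort1 shares with and without Ngfr were 10.8% and 9.20% (sorted) and 6.65% and 4.97% (bead-prepared). The part of depth in these Sort1 shares was not tested. Ntrk2 and Ntrk3 were found together in 14 of the 278 uninjured non-myelinating cells, in which 15.1% of the cells with Ntrk2 and 15.7% of those without had Ntrk3. In sorted neonatal non-myelinating cells these shares were 14.6% and 8.33%, in bead-prepared ones 9.38% and 6.68%, and in 3 DPI Schwann-like cells 2.44% and 6.0%. The cells with Ntrk2 were the deeper ones in all 4 libraries, and the part of depth was not tested.

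Neuronal markers were also counted in the Schwann-like cells. In Schwann-like cells the summed level of 4 neuronal markers was 2.41 CPM in uninjured nerve, 21.6 CPM at 3 DPI, 11 CPM in sorted and 4.52 CPM in bead-prepared neonatal nerve, and 3 of the 4 were at 0 in each adult library. The Ntrk3 and Sort1 levels of the 3 DPI class, 21.6 and 23.8 CPM, were of the same size as its neuronal sum. The part of neuronal transcripts in the receptor values was not tested.

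Of 44 other genes of the pathway (neurotrophin processing, other receptors of the sortilin family, and the partners and effectors of p75NTR and the Trk receptors), 43 were in the tables. In Schwann-like cells, 23 had enough UMIs, of which 3 were at least 2-fold higher at 3 DPI and 3 lower, with a median ratio of 0.871 against 1.10 over all genes compared. Both shares lay below those of all genes given above. The higher genes were Sorcs2, a sortilin relative that also pairs with p75NTR (54.1 against 12 CPM, ratio 4.49, 1.69 to 15.0), Furin, a protease that cuts neurotrophin precursors (104 against 24.1 CPM, ratio 4.31, 2.16 to 9.56), and Shc1, an adaptor that docks on Trk receptors (36.8 against 9.63 CPM, ratio 3.82, 1.25 to 15.6). The lower genes were the signalling genes Sos1 (ratio 0.233, 0.0857 to 0.549) and Gab1 (ratio 0.304, 0.185 to 0.484) and the sortilin relative Sorcs1 (90.9 against 214 CPM, ratio 0.424, 0.287 to 0.619).

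In endoneurial-like cells, 29 of these genes had enough UMIs, of which 7 were higher at 3 DPI and 2 lower, where 17.5% of all genes compared were higher and 8.48% lower, with a median ratio of 1.41 against 1.17 over all genes. Mmp9, a matrix protease that can cut neurotrophin precursors, had 32 UMIs at 3 DPI and 0 in uninjured cells and was at least 7.52-fold higher against the floor of 3 counts (5.77-fold at the lower end). Furin was 94.2 against 29.2 CPM (ratio 3.23, 2.18 to 4.93), Sorcs2 was 90.9 against 31.1 CPM (ratio 2.93, 1.99 to 4.42) and Gab1 was 78.9 against 32 CPM (ratio 2.47, 1.67 to 3.73). Furin and Sorcs2 were thus higher at 3 DPI in both classes, whereas Gab1 was lower in one and higher in the other. The lower genes were Sorcs3 (ratio 0.317, 0.127 to 0.729) and Sorl1 (ratio 0.352, 0.216 to 0.564). Ntf5, which encodes the other TrkB ligand, had 0 UMIs in the Schwann-like cells of both adult libraries and 1 UMI in the endoneurial-like cells of 3 DPI nerve.

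The genes whose profiles were most like each member were sought over 29 class-by-library profiles of at least 20 cells and 13289 genes, by Pearson's r of log2(CPM + 10). The profiles share libraries and the values are descriptions. Among the closest genes were Elmod1 for Bdnf (r = 0.863), Phgdh for Ngfr (0.869), Clip3 for Ntrk2 (0.891), Dpysl4 for Ntrk3 (0.833) and Cox7a1 for Sort1 (0.716). The next for Ngfr were Tnik, Mthfd2l, Tenm3 and Rtkn, and Mthfd2l also stood among the 5 closest to Ntrk3 (0.778). Those next to Bdnf were Pde3a, Hrc, Ppp1r1a and Mir143hg, and those among the closest to Ntf3 were 4833417C18Rik (0.813), Rcan2, Rasd1 and Grip2. Those of Ntrk2 were Rab34, Olfml2b, Meis3 and Rarres2, those of Ntrk3 also held Gm12284, Lphn3 and Tdrkh, and those of Sort1 were Arvcf, Gnai1 and Sirt2. With a pseudocount of 1, 1 to 3 of the 5 genes were shared for each member, so these lists depend on the scale at low levels.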

How the data were processed

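Nerve cells of wild-type CD1 mice were profiled by Drop-seq in 4 libraries. The authors deposited raw UMI counts per gene and barcode, aligned to mm10 per the labels. The sources used here did not name the aligner's version or the annotation. The tables held 2500 (3 DPI), 2000 (uninjured), 2500 (sorted neonatal) and 6200 (bead-prepared neonatal) barcodes with 8123103, 4513814, 5110171 and 7634799 UMIs. Every column was mapped to its sample.

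Barcodes with at least 200 genes, at most 10% mitochondrial and at most 5% hemoglobin UMIs were kept, and the 5% with the highest simulated-doublet score were removed from each library. Counts were normalized with scran 1.30.0 and clustered with Seurat 5.3.0 in R 4.3.3 (2000 variable genes without the members, 20 principal components, resolution 0.4), the neonatal libraries together. Clusters were named from marker lists without Ngfr. The thresholds of that naming (a relative score of 0.3 for subtypes, at least 3 markers found) were set after the clusters were seen. UMIs were summed per class, and intervals came from scipy 1.17.1. The interval and ratio functions were tested on simulated data. With 1 library per group no test between groups and no fit of edgeR's model was run, and edgeR 4.0.16 gave scaling factors for 1 alternative.

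The members and the gene lists were chosen with earlier results of these data known. Named genes were the members, the 5 genes most like each, and up to 4 higher and 4 lower pathway genes per class. A few genes that these rules or lists name are not reported here. Alternatives changed the cell filters, normalization, resolution, class assignment, depth and scaling.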

Additional observations from a re-analysis of the deposited data

Results flagged for a closer look

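Ngfr had different directions in different classes of the same libraries. The ratio of 3 DPI to uninjured CPM was 7.72 in Schwann-like cells and 3.07 in epineurial-like cells, but 0.439 in endoneurial-like cells. With 1 library per condition, the difference between these classes was not tested. The epineurial value was 1.21 with classes set cell by cell and 1.93 as a mean over cells, and the endoneurial value was 0.582 after thinning, each short of a 2-fold difference.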

How the results depend on the processing

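No paired analysis was possible because each group had 1 library. The 17 ratios of 3 DPI to uninjured were recomputed under 168 alternatives, of which 157 stayed within the counting interval of the reported value, 11 did not and 0 reversed a 2-fold difference. For Schwann-like and endoneurial-like cells, 81 of 86 stayed within it. Thinning to 500 UMIs per cell gave 0.808 for Ntrk2 and 0.431 for Ntrk3 in Schwann-like cells, and 0.582 for Ngfr and 0.872 for Ntrk2 in endoneurial-like cells, while assigning cells from their own markers gave 0.955 for Ntrk2 in endoneurial-like cells. Elsewhere, own markers gave 1.21 for Ngfr and 0.634 for Ntrk2 in epineurial-like and 0.786 for Ntrk2 in endothelial-like cells, thinning gave 0.596 for epineurial Ntrk2, and the mean over cells gave 0.841 for epineurial and 1.27 for VSM/pericyte Ntrk2. The causes were not tested. The Ngfr ratio in Schwann-like cells ranged from 5.81 to 7.80 over the 13 alternatives run for it. Thinned ratios under 20 UMIs were not formed. The alternatives without the 10 cells with most Ngfr, without the cells with muscle markers and with the finer clusters of vascular cells were chosen after seeing the data. Leaving out replicates was not possible with 1 library per group. Own markers also gave 0.376 (epineurial) and 0.439 (endoneurial) and the mean over cells 0.319 (endoneurial) for Sort1, past 2-fold but within the counting intervals. Ratios with under 20 UMIs in a library are limited by depth, which holds for Ntf3 in VSM/pericyte-like cells, Ngfr in epineurial-like cells, Ntrk2 in endothelial-like cells, and every ratio of Ntrk3 and Sort1.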
